A study of Mus musculus with 2 samples.

Results

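The genes described are 10 ligands of the TGF-beta family: Gdf9, Bmp15, Bmp6, Bmp4, Gdf3, Tgfb1, Tgfb2, Tgfb3, Inha and Inhba. They were taken by symbol from a table of 53832 mouse genes, and all 10 stood there on a row of their own. The libraries were made from polyadenylated RNA of mouse oocytes, which the titles call small oocytes. Ovaries of female embryos had been cultured under 33.3 kPa of external pressure, and cells positive for a CFP reporter of Stella (Dppa3, a germ cell gene) had been sorted from them. There were 2 libraries, replicates 1 and 2, of this 1 group, with 5019462 and 5274338 expected counts. Both came from reporter-positive cells and both were under pressure, so no effect of pressure is measured here. The labels give neither the number of animals or cells pooled nor separate cultures, and the spread between the libraries may be technical.

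Ligands of this family are secreted as dimers that proteases of the furin type cut from a longer precursor. A dimer brings together type II and type I receptor kinases, which phosphorylate Smad proteins that move to the nucleus. Smad2 and Smad3 serve the TGF-beta and activin branch, and Smad1, Smad5 and Smad9 the BMP branch. In the ovary the oocyte is the best known source of GDF9 and BMP15, which act on the surrounding granulosa cells, and mouse follicles without GDF9 stop growing at an early stage. Inhibins, activins and the TGF-betas are known mainly from the somatic cells of the follicle. All values below are RNA levels, and none shows a secreted or processed protein.

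Gdf9 was by far the most abundant of the 10 ligands, and the levels fell into steps below it. Expression was counted at a TPM (a transcript level scaled for gene length and depth) of at least 1 in both libraries. By that threshold 5 of 10 ligands were expressed (Gdf9, Bmp15, Tgfb3, Bmp6 and Tgfb2), or 50%, against 53.5% of protein-coding genes and 25.6% of all genes. The median over the 10 ligands was 2.73 TPM in replicate 1 and 3.78 TPM in replicate 2, near the 2.51 and 2.57 TPM of all protein-coding genes. The remaining 5 genes (Inha, Gdf3, Bmp4, Inhba and Tgfb1) had at most 9 counts in a library. Summed over the 10 genes, the libraries held 1523 and 1988 counts, and every one of these values was a whole number, so no read divided in fractions between genes is visible in them.

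**Figure D1:**
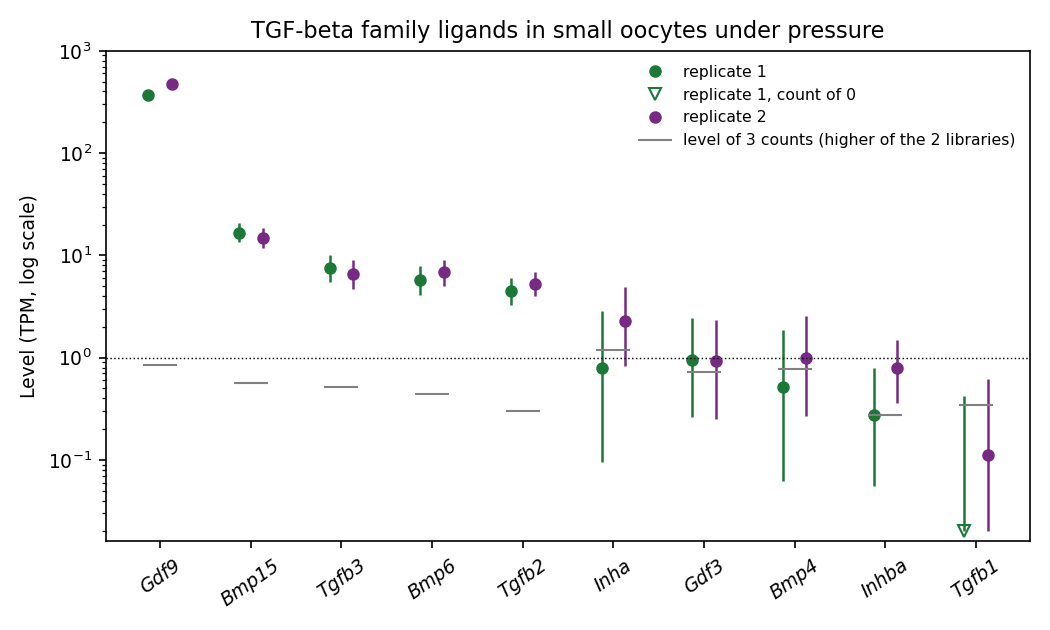
Level of each ligand in replicate 1 (left of each pair) and replicate 2 (right) on a logarithmic TPM axis, with 95% exact Poisson intervals that cover counting error only. Grey dashes mark the level of 3 counts and the dotted line 1 TPM; Gdf9 stands at 369 and 477 TPM, the other expressed ligands between 4.499 and 16.6 TPM, and 5 genes at or near the level of 3 counts.

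Gdf9 (ENSMUSG00000018238, chromosome 11, 53431023 to 53437904, plus strand, GRCm38), the ligand that drives early follicle growth in mice, had 1296 counts in replicate 1 and 1740 in replicate 2. These gave 369 TPM (95% counting interval 349.6 to 390.1) and 477 TPM (455 to 500.4), or 423 ± 76.4 TPM (SD, n = 2). The 2 intervals do not overlap, so the libraries differed by more than counting error. Gdf9 stood above 98.6% and 99.0% of the protein-coding genes and ranked 261 among 21722 by its mean. Its RNA made up 90.9% and 92.5% of the summed TPM of the 10 ligands.

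Bmp15 (ENSMUSG00000023279, chromosome X, 6314107 to 6320721, minus strand), the closest oocyte partner of Gdf9 and able to form heterodimers with it, had 88 and 81 counts. Its level was 16.6 TPM in replicate 1 (13.4 to 20.5) and 14.8 TPM in replicate 2 (11.7 to 18.3), or 15.7 ± 1.34 TPM. Here the counting intervals overlap widely, and the gene lay above 67.8% and 65.8% of the protein-coding genes. The level of Gdf9 was 22.2 times that of Bmp15 in replicate 1 and 32.4 times in replicate 2. On the log2(TPM + 1) scale this lead was 4.39 and 4.92, or 4.66 ± 0.38 (SD, n = 2), in the same direction in both libraries and larger than its spread. With CPM, which leaves out gene length, the lead was 4.07. A permutation test over 2 libraries cannot reach a small p, and none was run.

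**Figure D2:**
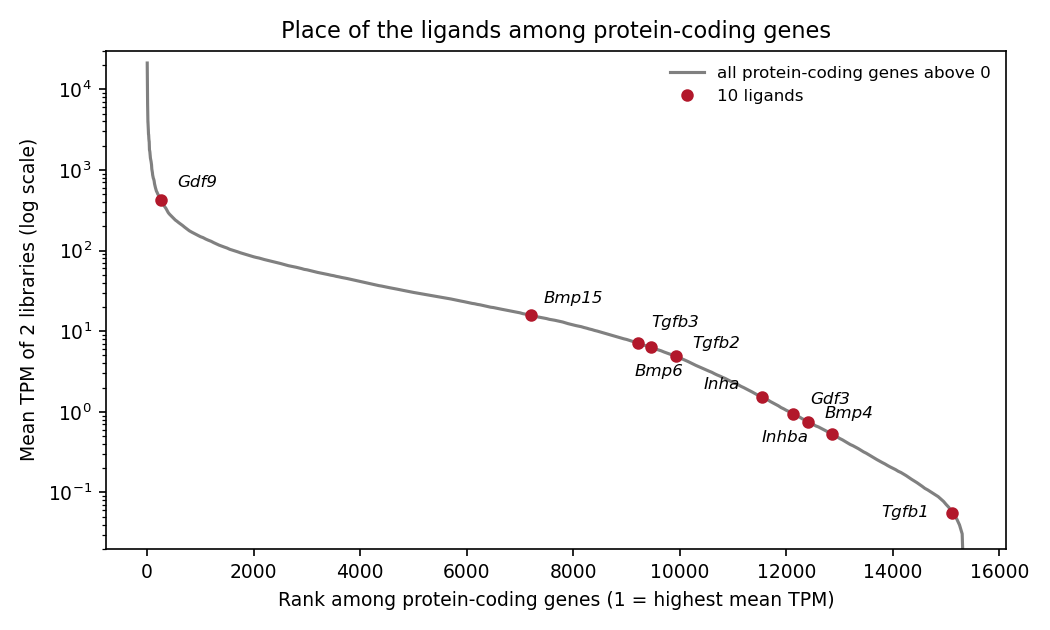
Mean TPM of the 2 libraries (logarithmic axis) against rank among protein-coding genes, with the 10 ligands as red points on the grey curve of genes above 0. Gdf9 sits on the steep left end at rank 261, Bmp15 at 7214 and Tgfb1 at 15116.

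Bmp6 and Bmp4 are ligands of the BMP branch, and Gdf3 is a ligand known from pluripotent cells that can signal like Nodal. Bmp6 (chromosome 13, 38345107 to 38500302, plus strand), which oocytes and granulosa cells are known to make, had 39 and 48 counts, or 5.79 and 6.86 TPM. Bmp4, needed in the mouse embryo to form germ cells and later made by ovarian stroma, had 2 and 4 counts, or 0.515 and 0.992 TPM. Bmp6 therefore stood above Bmp4 in both libraries, with counting intervals of 4.12 to 7.91 and 5.06 to 9.09 TPM for Bmp6 and 0.0624 to 1.86 and 0.270 to 2.54 TPM for Bmp4.

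Gdf3 (chromosome 6, 122605403 to 122610087, minus strand) had 4 counts in each library, or 0.956 and 0.920 TPM. The next protein-coding gene upstream of it is Dppa3, the gene of the sorting reporter, which starts 16323 bases away on the other strand. Dppa3 stood at 6507 and 6682 TPM. Nanog, a pluripotency factor 97402 bases from Gdf3 on the far side of Dppa3, had 0 counts in each library, which bounds it at the level of 3 counts, 0.598 and 0.569 CPM (counts scaled to the library total). Apobec1, the neighbour 2959 bases away on the other side of Gdf3, had 4 and 3 counts.

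The TGF-betas proper, known for the control of growth and matrix, differed among themselves. Tgfb3 (chromosome 12, 86056745 to 86079041, minus strand) had 44 and 40 counts, or 7.53 and 6.59 TPM. Tgfb2 (chromosome 1, 186622792 to 186705989, minus strand) had 45 and 55 counts, or 4.499 and 5.29 TPM. Tgfb1 had 0 and 1 counts, which is below the level of 3 counts, 0.344 and 0.332 TPM for its length. Tgfb2 and Tgfb3 were thus above Tgfb1 in both libraries, and no fold is given against a gene at that level.

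Inha encodes the subunit that makes an inhibin, and Inhba the subunit shared by inhibin A and activin A. Inha had 2 and 6 counts, or 0.785 and 2.27 TPM, and Inhba 3 and 9 counts, or 0.272 and 0.785 TPM. The counting intervals of the 2 libraries overlap for each gene (0.0951 to 2.84 and 0.832 to 4.93 TPM for Inha, 0.0561 to 0.794 and 0.359 to 1.49 TPM for Inhba). Inha passed 1 TPM in replicate 2 and not in replicate 1.

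In the order of the levels, the steps from Gdf9 to Bmp15 and from Bmp15 to Tgfb3 were larger than the summed SDs, with counting intervals apart in both libraries. Tgfb3 at 7.06 ± 0.665 TPM and Bmp6 at 6.32 ± 0.756 TPM did not differ beyond their spread. Tgfb2, at 4.90 ± 0.561 TPM, was below Bmp6 in each library, but with overlapping counting intervals, and in CPM the order of these 3 genes was different (Tgfb2 9.70, Bmp6 8.44, Tgfb3 8.17 CPM). Tgfb2 was above Inha in both libraries, with overlapping counting intervals in replicate 2. Inha, Gdf3, Bmp4 and Inhba could not be ordered, as each stood within the spread of its neighbour. The 3 protein-coding genes nearest to Gdf9 by Euclidean distance of log2(TPM + 1) over the 2 libraries were Rbpms2, Pfdn1 and Oas1h, at distances of 0.14, 0.16 and 0.17. Nearest to Bmp15 were Fam83f, Ipo7 and Anp32e, each at 0.01 to 0.02. With only 2 libraries of 1 group, such nearness is one of level and little else.

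Among the annotated genes that overlap a ligand, the protein-coding Txndc5 shares 224 exon bases with Bmp6 on the opposite strand, with 315 and 412 counts of its own. Ttll5, which overlaps Tgfb3 on the opposite strand, shares 0 exon bases with it, and had 342 and 411 counts. The kit marks strand, but whether the counting used it is not given in the sources used here, so the 39 and 48 counts of Bmp6 are uncertain by any reads from Txndc5. Other annotated genes share 124 exon bases with Tgfb2 (Gm29491, 0 counts) and 163 and 257 with Tgfb3 (Gm37804 with 1 count in each library and Gm48008 with 0). Gm15217, annotated as protein-coding, shares 89 with Bmp4 and had 0 counts. No annotated gene overlaps Gdf9 or Bmp15. Uqcrq, a subunit gene of the respiratory chain, lies 192 bases from Gdf9 on the opposite strand and had 727 and 694 counts.

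Promoter letters are shown for 3 ligands at different levels: Bmp15 and Tgfb2, which were expressed, and Inhba, which was not. In the set of RefSeq promoter sequences used here (GRCm38.p6), Gdf9, Gdf3 and Tgfb3 had no entry, which says nothing about RefSeq itself. The set gave a start site for 7 of the 10 ligands. Sequences were shown only where that start lay within 10 bases of the GENCODE start. Bmp4 and Tgfb1 met this rule too but are not shown. The 3 shown were chosen after their values and motifs were seen. Each is the 250 bases before the start, 5′ to 3′ on the gene's strand, at chrX:6320725-6320974 (minus strand), chr1:186705990-186706239 (minus strand) and chr13:16011601-16011850 (plus strand). Capitals mark the E-box CANNTG, bound by basic helix-loop-helix factors such as FIGLA, the letters TAATTA and TAATTG, bound by the oocyte homeobox factor NOBOX, and TATAAA, each searched on both strands, with no overlaps among the matches in the 3 windows.
Bmp15: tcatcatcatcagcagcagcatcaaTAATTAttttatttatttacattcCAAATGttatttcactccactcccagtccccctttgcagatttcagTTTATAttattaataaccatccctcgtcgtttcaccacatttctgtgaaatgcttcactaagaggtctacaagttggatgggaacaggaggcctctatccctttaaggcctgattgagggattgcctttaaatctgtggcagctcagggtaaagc
Tgfb2: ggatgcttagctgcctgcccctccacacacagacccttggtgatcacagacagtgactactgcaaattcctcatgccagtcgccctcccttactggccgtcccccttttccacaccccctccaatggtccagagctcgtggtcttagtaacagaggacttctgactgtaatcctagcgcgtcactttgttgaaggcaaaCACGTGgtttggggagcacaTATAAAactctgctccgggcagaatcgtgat
Inhba: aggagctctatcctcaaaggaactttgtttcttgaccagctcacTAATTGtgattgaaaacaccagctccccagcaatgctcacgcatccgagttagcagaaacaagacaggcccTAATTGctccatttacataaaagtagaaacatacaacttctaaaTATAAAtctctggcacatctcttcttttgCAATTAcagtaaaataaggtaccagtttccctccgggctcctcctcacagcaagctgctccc

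Bmp15 held 1 E-box (CAAATG, starting 201 bases before the start site), 1 TAATTA (225 bases before) and 1 TATAAA on the opposite strand (155 bases before). Tgfb2 held CACGTG, a form of the E-box, 51 bases before its start and TATAAA 31 bases before it. Inhba, at 3 and 9 counts, held 3 matches to TAATTG, 206, 135 and 62 bases before its start, and 1 TATAAA. Of 32851 promoter windows of the same length, 66.2% held an E-box, 6.02% CACGTG, 11.3% TAATTA or TAATTG, and 12.4% TATAAA. Among the windows not shown, CACGTG also stood before Bmp4, which had 2 and 4 counts, and before Bmp6. It lay 188 bases before the start of Bmp4 and 127 before that of Bmp6. Bmp4 held 3 E-boxes and Bmp6 2, while Tgfb1 and Inha held none. Letters of the NOBOX kind stood before Bmp15 and Inhba. The windows of the other ligands with a RefSeq start (Bmp6, Bmp4, Tgfb1, Tgfb2 and Inha) held none. As the windows shown were chosen after motifs and values were seen, no link between such letters and expression was tested. A match is a description of letters and does not show binding.

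Both libraries were sorted from ovaries, so RNA of other cells bears on the ligands known from somatic cells. In bulk RNA, fewer cells of a type and less RNA per cell cannot be told apart. All 15 oocyte genes of a list (zona proteins, maternal factors and transcription factors) were expressed, with a summed level of 13399 and 16164 TPM. Of 12 granulosa markers, 4 were expressed (Nr0b1, Kitl, Gata4 and Wt1), with a summed level of 18.8 TPM in replicate 1 and 10.95 TPM in replicate 2. Of the 12 the highest mean was that of Amhr2, the receptor of anti-Müllerian hormone, with 17 and 3 counts, or 4.91 and 0.834 TPM. Foxl2, the defining regulator of granulosa cells, had 10 and 5 counts, Amh 2 and 3, Lgr5 1 and 0, and Fshr 0 in both. Amh, Amhr2 and Fst, 3 of the 12, also stand in the lists of the pathway. Stroma and theca markers, which bear on Bmp4, were expressed in 2 of 10 cases, Col1a1 and Dcn, with sums of 7.10 and 5.66 TPM, and Tcf21 and Cyp17a1 had 0 counts. Of 48 markers of granulosa, stroma, endothelial, perivascular, surface epithelium, immune and erythroid cells, 10 were expressed, or 20.8%, against 53.5% of protein-coding genes. Together the 48 held 0.00857% and 0.00738% of the counts. The highest of the 48 was Myh11, a smooth muscle myosin, at 8.61 and 12.7 TPM. Of 5 perivascular markers it alone was expressed. Acta2 had 10 and 0 counts, Rgs5 5 and 1, Pdgfrb 3 and 0, and Cspg4 1 and 2. The part of these cell types in the low ligand levels was not tested.

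The difference between the 2 libraries shows how far each level varied from 1 library to the other. It compares libraries of the same treatment, not conditions. Of the 5 ligands with enough counts to test, 1, Gdf9, was lower in replicate 1 at an adjusted p under 0.05 and 0 were higher, against 4.25% lower and 3.59% higher among 12182 genes tested and 7.84% in either direction. Gdf9 in replicate 1 was 0.781 times its level in replicate 2, a log2 ratio of -0.36 (counting SE 0.05, 95% counting interval -0.46 to -0.25, adjusted p = 3.1e-09 in the exact binomial test with Benjamini-Hochberg adjustment). With the further demand of a 2-fold difference, 0 of 5 ligands were called, against 0.673% of the genes tested; 1 of 5 had an unadjusted p under 0.05, against 20.7% of the genes tested, and edgeR's negative binomial exact test with a preset biological coefficient of variation (BCV, the relative spread between replicates beyond counting) of 0.1 called 0. In that test the adjusted p of Gdf9 was 1, against 3.1e-09 to 5.2e-09 under the other alternatives, so the call holds against counting noise alone. The BCV estimated over all genes tested was 7.31%, and the other p-values between the libraries given below cover counting noise only as well.

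The remaining 4 tested ligands had intervals that include 0. Bmp15 had a log2 ratio of replicate 1 over replicate 2 of 0.19 (95% counting interval -0.26 to 0.64) and Tgfb3 of 0.20 (-0.45 to 0.86), both with higher values in replicate 1. Bmp6 had -0.23 (-0.88 to 0.41) and Tgfb2 -0.22 (-0.82 to 0.37). A difference inside these intervals was not detectable at this depth. Gdf9 and Bmp15, partners in the oocyte, thus had log2 ratios of opposite sign. The upper end of the Gdf9 interval (-0.25) and the lower end of the Bmp15 interval (-0.26) just overlap, and the difference between the 2 genes was not tested.

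**Figure D3:**
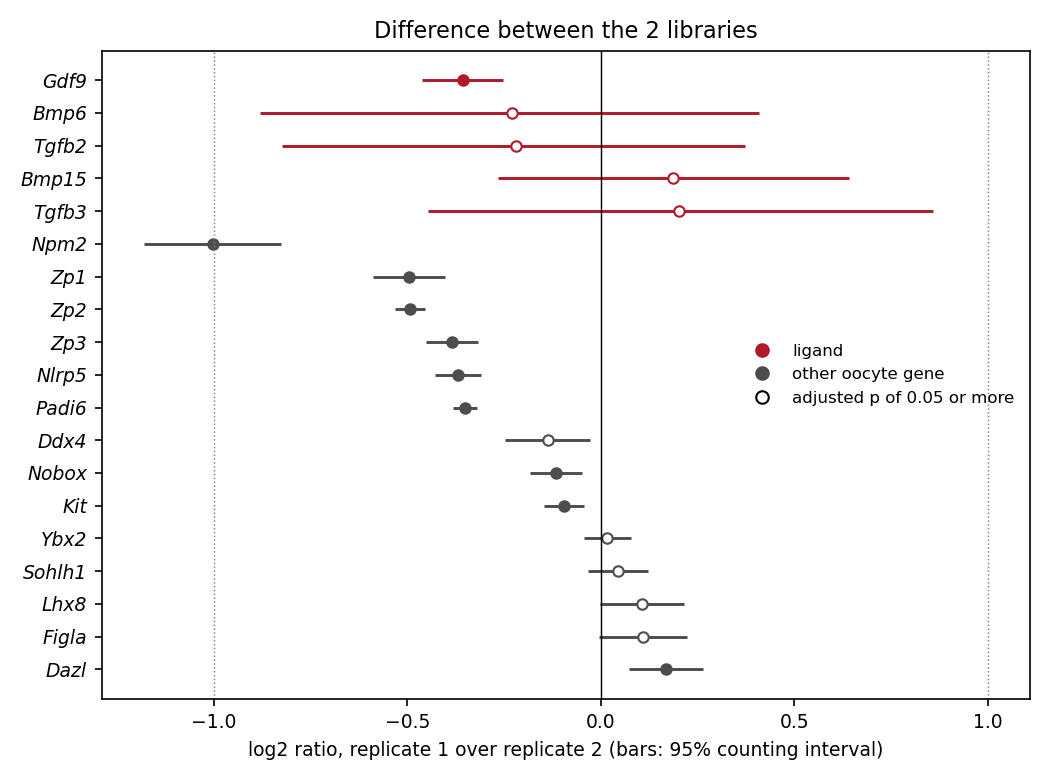
Log2 ratio of replicate 1 over replicate 2 for the 5 ligands tested (red) and 14 other oocyte genes (grey), with bars for 95% counting intervals and open points where the adjusted p was 0.05 or more. Gdf9, at -0.36, has a ratio near those of Padi6, Nlrp5 and Zp3, while Bmp15 and Tgfb3 lie right of 0 with wide bars.

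Other oocyte genes give the setting of Gdf9 in the 2 libraries. Of 14 oocyte genes tested, 8 were lower and 1 higher in replicate 1 at an adjusted p under 0.05 (exact binomial test), against 4.25% lower and 3.59% higher among all genes tested. These 14 genes held 388 to 19953 counts in a library, and the test passes smaller differences at higher counts. The shares over all genes are thus not matched to them in depth. The median log2 ratio of the 14 genes was -0.13, against -0.00023 over all genes tested. The farthest from 0 was Npm2, a maternal histone chaperone, at -1.002 (388 counts in replicate 1 and 815 in replicate 2, adjusted p = 2.8e-28, exact binomial test), the only gene of the list called at 2-fold. Padi6, an egg protein of the cytoplasmic lattices, had a log2 ratio of -0.35, the zona gene Zp3 -0.39 and Zp2 -0.49. Ddx4, a germ cell RNA helicase, had -0.14 with an adjusted p of 0.11, and Oosp1, an oocyte-secreted protein, had 7 and 11 counts and was not tested. The transcription factor gene Nobox had -0.12 and Figla, which drives zona genes, 0.11, the last with an adjusted p of 0.26. Expressed per TPM of another oocyte gene, Gdf9 was higher in replicate 1 for 6 of 15 genes and lower for 9. The ratio of replicate 1 over replicate 2 of this relative level ran from 0.694 (per Dazl) to 1.56 (per Npm2, at 1.70 in replicate 1 and 1.09 in replicate 2). Per Padi6 it was 0.108 and 0.109 and per Zp3 0.272 and 0.266, nearly the same in both libraries, while per Figla it was 0.415 and 0.574. The standing of Gdf9 between the libraries therefore depended on the gene it was set against.

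The rest of the family was mostly at or near 0 counts. Of 23 other TGF-beta family ligands, 1 was expressed, Bmp7, a BMP branch ligand, with 81 and 59 counts, or 11.7 and 8.18 TPM. Its log2 ratio of replicate 1 over replicate 2 was 0.52 (95% counting interval 0.02 to 1.03, adjusted p = 0.20, exact binomial test), so it did not pass. Amh, the anti-Müllerian hormone of granulosa cells, had 2 and 3 counts, and 11 of the 23, Nodal and Mstn among them, had 0 in both libraries. Over all 33 ligands Gdf9 held 87.6% and 90.3% of the summed TPM. Bmp7, at 9.92 ± 2.47 TPM, had both its values below those of Bmp15 and above those of Tgfb3.

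**Figure D4:**
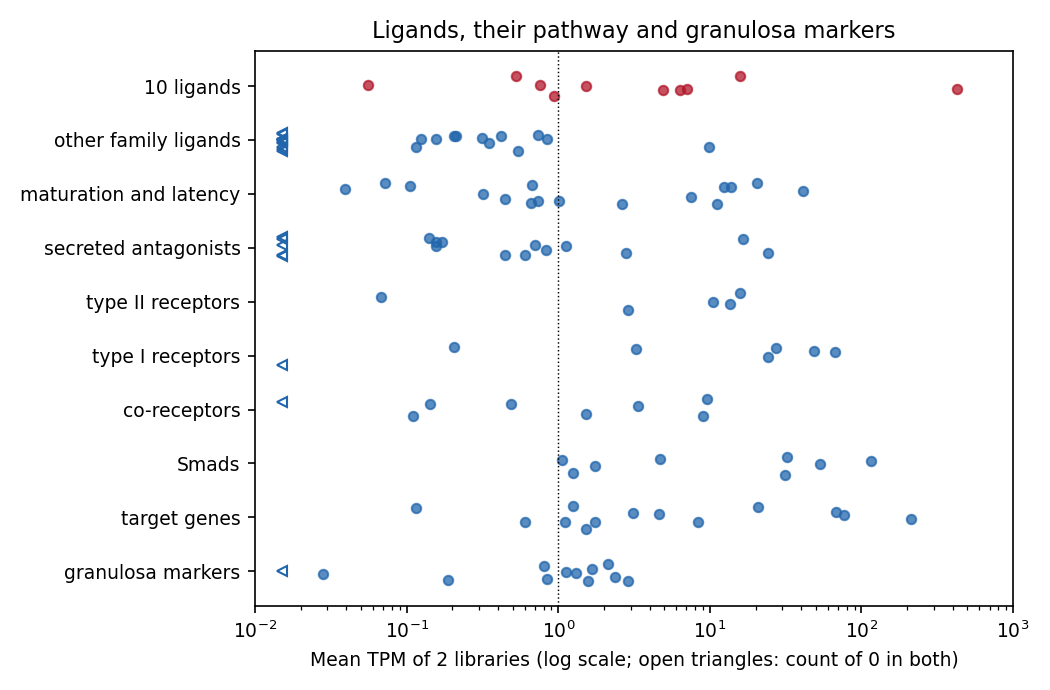
Mean TPM of the 2 libraries (logarithmic axis) for each gene of the ligand, processing, antagonist, receptor, Smad and target lists, and of the granulosa markers; open triangles are genes with 0 counts in both libraries and the dotted line is 1 TPM. Gdf9 stands far right of every other ligand at 423 TPM, receptors and Smads spread on both sides of 10 TPM, and granulosa markers crowd around 1 TPM.

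Enzymes and binding proteins that shape ligands outside the cell were unevenly expressed. Of 16 genes of maturation and latency, 7 were expressed. Furin, the protease that cuts the precursors, stood at 39.8 and 42.6 TPM and Pcsk6, a related protease, at 23.4 and 17.7 TPM, while Itgb6 and Tll1 had at most 2 counts. One gene of this list was called at 2-fold, Thbs1, an activator of latent TGF-beta named after its value was seen, with 108 counts in replicate 1 and 52 in replicate 2 (log2 ratio 1.11, adjusted p = 0.00018, exact binomial test). Of 17 secreted antagonists, 3 were expressed: Dand5, an inhibitor of Nodal-type ligands, at 26.7 and 21.5 TPM, Twsg1, a modulator of BMPs, at 15.95 and 16.98 TPM, and Fstl3, which binds activins, at 2.37 and 3.19 TPM. Fst, the activin-binding follistatin of granulosa cells, had 14 and 4 counts, and the BMP antagonists Nog, Chrd and Grem1 had 0.

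Some receptors of the BMP, activin and GDF9 branches were expressed, while the type II receptor of the TGF-betas was at or below 2 counts. Of the receptors, co-receptors and Smads together, 18 of 28 genes were expressed, or 64.3%, against 53.5% of protein-coding genes. Of 5 type II receptors, 3 were expressed: Acvr2a at 15.6 and 15.97 TPM, Bmpr2, the type II receptor of GDF9 and BMP15, at 12.97 and 13.98 TPM, and Acvr2b at 9.88 and 11.1 TPM. Tgfbr2, which binds the TGF-betas, had 0 and 2 counts, and Amhr2 the 17 and 3 given above. Of 7 type I receptors, 5 were expressed, among them Tgfbr1, through which both the TGF-betas and GDF9 signal, at 64.9 and 68.5 TPM, and Bmpr1b, the type I receptor of BMP15, at 26.5 and 28.0 TPM. Bmpr1a, another type I receptor of BMPs, was the second highest of them at 48.5 and 48.8 TPM, and the lowest were Acvrl1, best known from endothelium, with 3 and 0 counts and Acvr1c, a receptor of Nodal, with 0. Of 8 co-receptors 4 were expressed, led by Rgmb, which binds BMPs, at 9.06 and 10.03 TPM and Tgfbr3, betaglycan, which presents TGF-beta and binds inhibin, at 9.01 and 8.94 TPM. Tdgf1, the co-receptor of Nodal and GDF3, had 1 and 0 counts and Hjv, a BMP co-receptor of iron control, 0.

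Of 8 Smads, 6 were expressed, with Smad4, the partner of all receptor Smads, at 119 and 113 TPM, Smad2 at 51.3 and 54.8 TPM and Smad3 at 30.2 and 32.3 TPM. Of the BMP branch, Smad5 stood at 32.8 and 31.8 TPM and Smad1 at 4.53 and 4.81 TPM. The lowest of the 8 were Smad9, also of the BMP branch, with 11 and 9 counts, and the inhibitory Smad6, with 10 and 4. Of 13 genes known as targets of the pathway, 10 were expressed. The BMP-responsive inhibitors of differentiation Id1 and Id3 led, with 249.6 and 172 TPM and with 79.2 and 73.1 TPM. The lowest were Tgfbi, a matrix protein, with 4 counts in each library and Atoh8, a transcription factor, with 1 and 0. Id1 was higher in replicate 1 by a log2 ratio of 0.55 (adjusted p = 5.8e-06, exact binomial test), the opposite side from Gdf9. None of the receptors, co-receptors and Smads tested (18 genes) passed an adjusted p of 0.05 between the libraries; 1 had an unadjusted p under 0.05, against 20.7% of all genes tested. In all, 37 of 94 genes in these pathway lists were expressed, 39.4% against 53.5% of protein-coding genes, and 2 of 37 tested genes, Thbs1 and Id1, passed an adjusted p of 0.05, no higher a share than the 7.84% of all genes tested.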

How the data were processed

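The authors deposited expected counts per gene, unscaled for depth or length. Per the submitters' processing notes, fastp 0.20.0, STAR 2.7.7a and RSEM were used on GRCm38; annotation, settings and strand option: not given in the sources used here. Per the labels' protocols, libraries were directional and amplified by 12 PCR cycles. The table's other 21 columns belong to no sample here and stayed out. GENCODE M21 gave lengths and positions for 53579 of 53832 Ensembl IDs. TPM used merged exon lengths; intervals are exact Poisson or Clopper-Pearson, at 95%, and cover counting error only. The edgeR quasi-likelihood test needs 2 groups and could not be run. Counts were rounded, filtered with filterByExpr and scaled by TMM (edgeR 4.0.16, R 4.3.3), and the libraries were compared by exact binomial tests (two-sided), Benjamini-Hochberg adjusted over all genes tested, with a prior count of 0.5 in log2 ratios. It was tested on simulated data with 200 changed genes, taken from the better counted of the 12182 genes and changed 2-fold or 4-fold. It recovered 100% of the 4-fold changes, and the recovery of the 2-fold changes is not reported here. The simulated counts held counting noise only, which is what the binomial test assumes. They therefore do not bear on its p-values where libraries differ by more than counting noise. Alternatives used DESeq2 1.42.0 size factors and others listed below.

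Genes named are the 10 ligands, other ligands expressed, the 2 highest and 2 lowest of each list by mean TPM (for ties at 0 some of them, for other cell types some), a fixed set, genes next to or overlapping a ligand, and the 3 nearest in level to Gdf9 and Bmp15. Others stand beside their list. The members and lists were chosen with earlier results of these data known.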

Additional observations from a re-analysis of the deposited data

How the results depend on the processing

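The number of expressed ligands was 5 with TPM, CPM and the longest transcript as length, 4 at a threshold of 5 TPM, and 6 without mitochondrially encoded genes in the TPM sum, where Gdf3 reached 1.04 TPM. The median over the 10 ligands was 3.21 TPM, against 4.66 in CPM. The lead of Gdf9 over Bmp15 was 4.66 on the log2 scale, and 4.07 in CPM, 4.81 with the longest transcript and 4.74 with a pseudocount of 0.1. Both CPM values differ since CPM leaves out length. Leaving out each library in turn gave 5 to 6 expressed ligands, medians of 2.73 to 3.78 TPM, leads of 4.39 to 4.92 and 39 to 42 expressed pathway genes, against 37 with both. At 2-fold 0 ligands were called in the main comparison, and with DESeq2 size factors, library totals or no filter on low counts; without a fold minimum 1 was called, Gdf9. Over all genes the calls were 82, against 211 without the filter, 955 without the fold minimum and 13 with the negative binomial test. No log2 ratio of a tested ligand changed sign. No paired analysis was possible because the series has 1 group. Depth limits Inha, Gdf3, Bmp4, Inhba and Tgfb1, at 9 counts or fewer.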
